A study of Mus musculus with 10 samples.

Results

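The genes described here are those of the Zfp series of mouse zinc finger genes that were expressed in germinal vesicle oocytes. They were taken from the deposited table by symbol (Zfp followed by a number), without Zfp57, Zfp445 and the symbols that start with Zfp36, with the transcript row of highest mean standing for each symbol. A gene was kept when its mean over the 10 libraries reached 0.5 RPKM, a read count set relative to the length of the transcript and the size of the library. Of 358 such symbols, 236 passed, out of 11338 genes of any name that passed the same filter. Among the other 122 symbols, 40 reached 0.5 RPKM in at least 1 library and 6 were listed at 0 in every library. The genes were thus chosen by their mean RPKM over all libraries, mutants included, and a gene could also enter through the group in which it was high. The mutant mean was below 0.5 RPKM for 14 of the 236 genes and the control mean for 8. Just inside the limit lay Zfp503 and Zfp689, with means of 0.509 and 0.514 RPKM, and just outside it Zfp551 and Zfp947, with 0.491 and 0.483 RPKM.

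Each library was made from a pool of 16 denuded germinal vesicle oocytes of 1 C57Bl/6J mouse, and all oocytes were held in medium with milrinone, which blocks meiotic resumption. The mutant group, Setdb1 F/-; ZP3-cre, consisted of 4 mice in which Setdb1 is floxed on one chromosome and deleted on the other, with ZP3-cre, a transgene whose promoter drives Cre in growing oocytes. The controls were 4 Setdb1 F/+; ZP3-cre mice, which carry Cre, a floxed and a wild-type allele, and 2 Setdb1 F/- mice, which carry a floxed and a deleted allele without Cre. Oocytes of both Cre groups therefore delete a floxed allele, and both F/- groups have a deleted allele in every cell. The labels do not give the age of the mice.

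C2H2 zinc finger proteins read DNA through arrays of small zinc-binding loops, and each array prefers its own sequence. Many mouse Zfp genes encode KRAB zinc finger proteins, whose KRAB domain binds the co-repressor Trim28, and Trim28 in turn brings the histone methyltransferase Setdb1, which methylates histone H3 at lysine 9. These genes lie in clusters, and in several cell types the clusters themselves carry this methylation mark. In the oocyte and early embryo, Zfp57 and Zfp445 are known for keeping imprints. Other Zfp genes have no KRAB domain and act in transcription, RNA handling or protein turnover.

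The libraries were checked first. Setdb1 stood at 4.06, 2.55, 3.32 and 1.31 RPKM in the mutants, at 28.6, 25.7, 25.1 and 52.5 RPKM in F/+; ZP3-cre controls, and at 19.9 and 26.3 RPKM in F/- controls. The log2 difference was -3.20 (exact two-sided permutation p = 0.0048, the smallest that 210 splits allow). All 10 oocyte markers examined were above the filter, and their summed level was 5651 to 5776 RPKM in the mutants, 5652 to 7123 in F/+; ZP3-cre and 6423 to 7469 in F/- controls. Markers of high level dominate this sum. Kit, 1 of the 10, was at 34.1 to 49.4 RPKM in the mutants and 66.6 to 79.8 RPKM in all controls. All mutant values lay below all control values in 3.56% of all tested genes. Of 10 granulosa and cumulus markers 7 passed the filter, led by Serpine2, with sums of 78.1 to 111 RPKM in the mutants, 90.7 to 104 in F/+; ZP3-cre and 76.1 to 77.9 in F/-, while the theca genes Cyp17a1 and Lhcgr were listed at 0 throughout. Of the theca and stroma list 1 of 6 genes passed, and of the blood, immune and endothelial list 5 of 9, with 3 at 0 in every library and sums of 22.0 to 42.7 RPKM in the mutants, 29.9 to 40.2 in F/+; ZP3-cre and 45.4 to 46.8 in F/-. The part of other cells in the results was not tested. The spacing of low values put the depth at about 45.9e6 to 72.6e6 reads per library, at which 10 reads on a transcript of 2 kb are worth 0.0689 to 0.109 RPKM. Libraries of 1 genotype correlated, over log2 values of tested genes, at r = 0.886 to 0.955 among mutants, 0.972 to 0.987 among F/+; ZP3-cre and 0.878 between the F/- libraries.

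Most expressed Zfp genes were of low to middle abundance. Their mean over the libraries had a median of 4.34 RPKM and quartiles of 1.69 and 10.4 RPKM, against a median of 6.06 RPKM over all 11338 genes. A mean of at least 10 RPKM was reached by 63 of the 236 (26.7%), against 37.2% of all tested genes, and 175 were at 0.5 RPKM or more in every library. The summed level of the 236 genes was 2408 to 2508 RPKM in the mutants, 2063 to 2122 in F/+; ZP3-cre and 2162 to 2241 in F/- controls, so the groups did not overlap. Leaving out the 11 genes that pass the test described next, the sums were 2181 to 2253 RPKM in mutants against 1955 to 2132 RPKM in all controls, and the groups still did not overlap. Over all tested genes the sums were 213366 to 216490 RPKM in mutants and 201162 to 218714 RPKM in controls, and these overlapped. The 236 Zfp genes made up 1.13% to 1.16% of that sum in mutants and 0.953% to 1.06% in controls. All these sums are a description, since genes of high level dominate them.

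A small number of these genes differed in mutant oocytes, and more of them were higher than lower. In the comparison of the mutants with all 6 controls, limma on log2(RPKM + 0.5) placed 9 of 236 Zfp genes higher (3.81%) and 2 lower (0.847%) at an adjusted p below 0.05. Among all tested genes the shares were 3.1% higher and 2.22% lower, so the share of higher Zfp genes lay near the background. At an unadjusted p below 0.05, 32 Zfp genes were higher (13.6%, against 11.1% of all genes) and 14 lower (5.93%, against 8.63%). In 17 Zfp genes each of the 4 mutant values exceeded each of the 6 control values (7.2%, background 4.62%), and in 4 each was below them (1.69%, background 3.56%). The median log2 change was 0.09 over the Zfp genes and 0.03 over all tested genes, with 135 of 236 (57.2%) and 52.7% above 0. After median centring or quantile normalization of the libraries the split was 7 higher and 5 lower with either scaling, and the median over the Zfp genes was 0.03 and 0.05. Over all tested genes the split depended on the scaling too, with 352 higher and 252 lower as deposited, 303 and 339 after median centring and 322 and 337 after quantile normalization. With both F/- libraries left out, 14 Zfp genes were higher and 8 lower, while 4.59% and 3.39% of all genes were. Without F/- replicate 2 alone the numbers were 14 and 9 (all genes 3.92% and 3.13%), and without mutant replicate 2 the lower Zfp genes numbered 4 (all genes 1.56%). Of the 11 genes past the threshold, Zfp641 had a control mean below the 0.5 RPKM limit, and Zfp41 and Zfp39 a mutant mean below it, so these 3 passed the filter through the group in which they were high and had to differ.

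**Figure D1:**
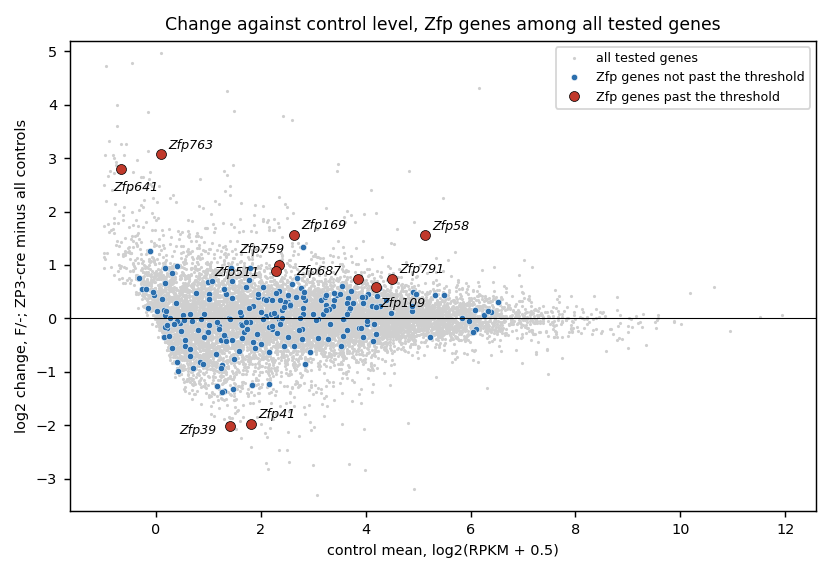
The log2 change of F/-; ZP3-cre against all controls (vertical axis, log2(RPKM + 0.5) scale) is plotted against the mean of the 6 control libraries (horizontal axis, same scale), with grey points for all 11338 tested genes, blue points for Zfp genes not past the threshold and red points for the 11 past it. Zfp763 and Zfp641 stand at the low end of the control levels, and Zfp58 stands at 34.7 RPKM in controls with a change of 1.56.

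Of the genes past the threshold, Zfp58, a gene of the Zfp cluster on chromosome 13, had the highest level in the mutants. It measured 116, 81.4, 91.0 and 129 RPKM in the mutants, against 35.8, 32.6, 39.8 and 32.9 RPKM in F/+; ZP3-cre and 33.3 and 33.97 RPKM in F/- controls. The lowest mutant value of 81.4 RPKM was above the highest control value of 39.8 RPKM. In such pools, a change in how many oocytes hold a transcript and a change in its amount per oocyte cannot be told apart. The mean was 105 ± 22.2 RPKM (SD, n = 4) in mutants and 34.7 ± 2.74 RPKM (SD, n = 6) in controls, 3.01-fold higher, with a log2 change of 1.56 ± 0.13 (SE, adjusted p = 8.11e-06). Zfp58 lies on chromosome 13 from 67490167 to 67500522 (GRCm38, minus strand). In the annotation its exons overlap those of Gm26965 on the same strand. Of its 50-base stretches 50.2% also occur in transcripts of other genes, with Gm26965 sharing the most, and reads of these stretches could be assigned to either.

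Both Zfp763 and Zfp641 were low in control oocytes. Zfp763 (chromosome 17, 33016864 to 33033381, minus strand) measured 7.21, 10.1, 11.3 and 4.82 RPKM in the mutants, against 0.634, 1.19, 0.434 and 0.437 RPKM in F/+; ZP3-cre and 0.669 and 0.0203 RPKM in F/- controls. The lowest mutant value was 4.82 RPKM and the highest control value 1.19 RPKM. The means were 8.35 ± 2.91 RPKM in mutants and 0.565 ± 0.385 RPKM in controls, and the log2 change was 3.07 ± 0.35 (SE, adjusted p = 0.000125), the largest among the Zfp genes.

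Zfp641, whose human counterpart ZNF641 encodes a KRAB zinc finger protein, lies on chromosome 15 from 98285585 to 98296515 on the minus strand. Its values were 4.82, 2.15, 7.79 and 2.53 RPKM in the mutants, against 0.177, 0.0981, 0.0241 and 0.209 RPKM in F/+; ZP3-cre and 0.0593 and 0.191 RPKM in F/- controls. No control library exceeded 0.209 RPKM, and the control values near or below 0.1 RPKM rest on few reads. The mean was 4.32 ± 2.59 RPKM in mutants and 0.127 ± 0.0767 RPKM in controls (log2 change 2.80 ± 0.34 SE, adjusted p = 0.000228). The mutant libraries differed among themselves, with replicates 1 and 3 above replicates 2 and 4.

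Zfp169 and Zfp759 are both on chromosome 13 as well. Zfp169 (48480763 to 48513493, minus strand) measured 15.9, 23.3, 15.1 and 12.2 RPKM in the mutants, against 3.28, 3.75, 4.24 and 4.37 RPKM in F/+; ZP3-cre and 6.33 and 12.1 RPKM in F/- controls. The mutant libraries were well above the F/+; ZP3-cre libraries, while F/- replicate 2 came up to the lowest mutant. The log2 change was 1.56 ± 0.31 (SE, adjusted p = 0.00935), with means of 16.6 ± 4.71 RPKM in mutants and 5.68 ± 3.31 RPKM in controls.

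Zfp759 (67121659 to 67142404, plus strand) measured 8.80, 16.2, 6.67 and 8.54 RPKM in the mutants, against 3.65, 4.62, 5.15 and 3.93 RPKM in F/+; ZP3-cre and 4.03 and 6.19 RPKM in F/- controls. Mutant replicate 2 was the highest, and the lowest mutant value of 6.67 RPKM was close to the highest control value of 6.19 RPKM. The log2 change was 0.99 ± 0.25 (SE, adjusted p = 0.0324). Without mutant replicate 2 it was 0.75 and did not pass (adjusted p = 0.0831), and leaving out mutant replicate 1 or 4 or F/+; ZP3-cre replicate 1, 2 or 4 also ended the call.

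The other 4 increases were smaller than 1 on the log2 scale. Zfp687, whose human counterpart ZNF687 works in a chromatin complex with ZNF592, had 22.9, 24.3, 23.1 and 23.8 RPKM in the mutants, against 15.1, 15.3, 12.9 and 13.8 RPKM in F/+; ZP3-cre and 13.6 and 12.9 RPKM in F/- controls. The replicates within a group differed by far less than the groups, and the log2 change was 0.74 ± 0.12 (SE, adjusted p = 0.00305). Zfp687 lies on chromosome 3 from 94994674 to 95015948 on the minus strand, with a gap of 308 kb to Setdb1, and the part of this linkage was not tested. Its exons overlap Pi4kb on the opposite strand, which had 4.20 ± 1.90 RPKM in mutants and 3.05 ± 2.00 RPKM in controls (adjusted p = 0.618).

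Zfp791 on chromosome 8 (85107168 to 85123095, minus strand) had 37.3, 38.6, 34.4 and 36.9 RPKM in the mutants, against 23.8, 20.8, 23.9 and 16.7 RPKM in F/+; ZP3-cre and 20.8 and 26.2 RPKM in F/- controls. The groups did not overlap, and the log2 change was 0.74 ± 0.13 (SE, adjusted p = 0.00537). Zfp109 on chromosome 7 (24227795 to 24252339, minus strand) had 29.9, 22.5, 30.3 and 24.98 RPKM in the mutants, against 19.8, 20.1, 14.8 and 17.95 RPKM in F/+; ZP3-cre and 20.6 and 14.2 RPKM in F/- controls. Its log2 change was 0.58 ± 0.15 (SE, adjusted p = 0.0427), the smallest of the changes that passed.

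Zfp511 on chromosome 7 (140036390 to 140040606, plus strand) had 11.0, 10.9, 7.21 and 5.81 RPKM in the mutants, against 4.48, 5.30, 3.91 and 4.998 RPKM in F/+; ZP3-cre and 4.61 and 3.04 RPKM in F/- controls. The lowest mutant value exceeded the highest control value by less than 1 RPKM, and the log2 change was 0.89 ± 0.23 (SE, adjusted p = 0.0419). Tubgcp2, a subunit of the gamma-tubulin complex, overlaps its exons on the opposite strand and had 15.1 ± 4.397 RPKM in mutants and 8.83 ± 1.94 RPKM in controls (log2 change 0.73, adjusted p = 0.0885). The library kit does not mark strand, so reads of the shared stretch cannot be told apart. The calls of Zfp109 and Zfp511 were the least stable of the 11: each was lost in at least 12 of 26 alternative settings, with adjusted p up to 0.118 for Zfp109 and 0.125 for Zfp511. Leaving out mutant replicate 1, 3 or 4 or any F/+; ZP3-cre library ended the call of Zfp109, and leaving out mutant replicate 1, 2 or 3, any F/+; ZP3-cre library or F/- replicate 1 ended that of Zfp511.

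Of the genes that were lower in the mutants, Zfp41 (chromosome 15, 75615200 to 75627448, plus strand) had 0.909, 0.116, 0.332 and 0.343 RPKM in the mutants, against 3.31, 3.09, 2.73 and 2.53 RPKM in F/+; ZP3-cre and 2.44 and 3.91 RPKM in F/- controls. The mutant mean of 0.425 ± 0.339 RPKM was 14.2% of the control mean of 3.001 ± 0.554 RPKM (log2 change -1.97 ± 0.29 SE, adjusted p = 0.00107). Both of its transcript rows gave nearly the same change.

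Zfp39 (chromosome 11, 58888153 to 58904225, minus strand) had 0.0461, 0.0549 and 0.118 RPKM in mutant replicates 1 to 3 and was listed at 0 in replicate 4, against 1.68, 0.884, 0.760 and 1.22 RPKM in F/+; ZP3-cre and 2.66 and 5.78 RPKM in F/- controls. The mutant values rest on few reads, and the control groups themselves lay apart, with the F/- libraries above all F/+; ZP3-cre libraries. The log2 change was -2.02 ± 0.42 (SE, adjusted p = 0.0131). The annotated antisense gene Gm12256 overlaps its exons.

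**Figure D2:**
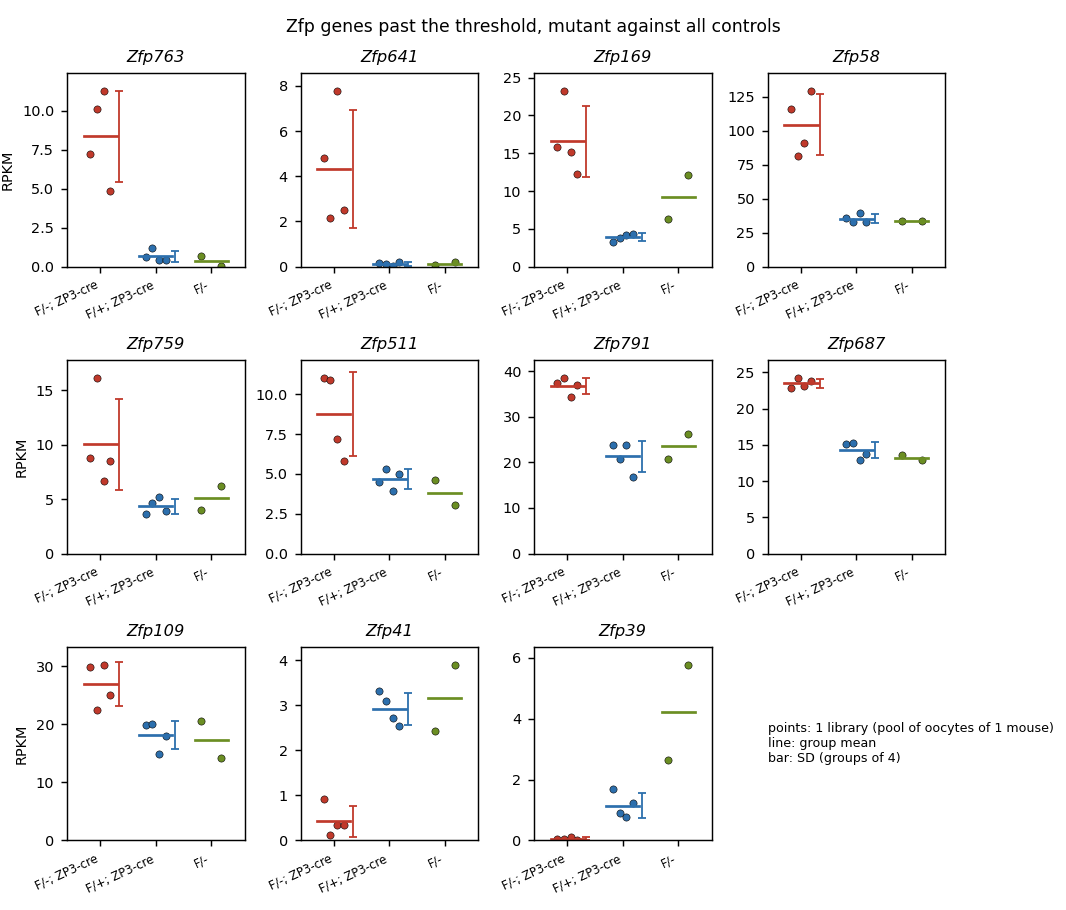
RPKM of the 11 Zfp genes past the threshold in each library (points), with F/-; ZP3-cre left, F/+; ZP3-cre in the middle and F/- right, the group mean as a line and the SD as a bar for groups of 4. In every panel the 4 mutant libraries lie on one side of the 6 controls, by a wide margin for Zfp58, Zfp763, Zfp641 and Zfp687 and by a narrow one for Zfp169, whose F/- replicate 2 is at 12.1 RPKM.

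Promoters of the changed genes are shown because some of them share an element that a member of the family is known to bind. RefSeq sequences of GRCm38.p6, from 250 bases before to 50 bases after the start in the direction of transcription, were at hand for 195 of the 236 genes and for 10 of the 11 that passed. Zfp143, itself one of the expressed Zfp genes, encodes an activator known to bind promoters at an element that contains ACTACA, any 3 bases and CCC. This string was looked for after the promoters of the changed genes had been read, on both strands, and matches are in capitals, as the reverse complement where they lie on the other strand. It was present in 32 of 195 Zfp promoters (16.4%) and in 456 of 9004 promoters of tested genes (5.06%). Among the changed genes it was present in Zfp58 (chr13:67500473-67500772 on the minus strand), Zfp759 (chr13:67127978-67128277 on the plus strand), Zfp109 (chr7:24237549-24237848 on the minus strand) and Zfp169 (chr13:48513387-48513686 on the minus strand). The start sites of 8 of the 10 promoters lie within 1 kb of the gene starts given above, while those of Zfp759 and Zfp109 are starts inside the annotated gene, 6.57 kb and 14.7 kb downstream of its first base. The sequences of these 4 promoters read:
Zfp58 promoter: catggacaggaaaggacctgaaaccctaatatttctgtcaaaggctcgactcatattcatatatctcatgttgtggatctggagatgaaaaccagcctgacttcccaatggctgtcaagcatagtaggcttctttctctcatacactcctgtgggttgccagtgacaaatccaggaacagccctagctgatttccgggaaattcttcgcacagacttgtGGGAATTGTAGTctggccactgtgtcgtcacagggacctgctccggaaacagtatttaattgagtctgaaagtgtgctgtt
Zfp759 promoter: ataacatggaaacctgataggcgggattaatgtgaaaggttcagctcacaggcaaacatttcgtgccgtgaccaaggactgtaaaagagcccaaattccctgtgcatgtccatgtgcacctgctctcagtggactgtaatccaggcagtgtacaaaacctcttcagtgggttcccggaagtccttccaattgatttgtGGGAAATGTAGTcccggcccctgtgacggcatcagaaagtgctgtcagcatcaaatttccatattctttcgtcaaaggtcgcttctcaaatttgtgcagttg
Zfp109 promoter: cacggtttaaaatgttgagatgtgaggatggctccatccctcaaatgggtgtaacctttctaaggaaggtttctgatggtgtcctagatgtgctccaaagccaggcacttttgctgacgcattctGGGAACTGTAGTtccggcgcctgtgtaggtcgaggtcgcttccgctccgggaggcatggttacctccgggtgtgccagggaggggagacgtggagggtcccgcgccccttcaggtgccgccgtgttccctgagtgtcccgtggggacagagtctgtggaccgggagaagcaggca
Zfp169 promoter: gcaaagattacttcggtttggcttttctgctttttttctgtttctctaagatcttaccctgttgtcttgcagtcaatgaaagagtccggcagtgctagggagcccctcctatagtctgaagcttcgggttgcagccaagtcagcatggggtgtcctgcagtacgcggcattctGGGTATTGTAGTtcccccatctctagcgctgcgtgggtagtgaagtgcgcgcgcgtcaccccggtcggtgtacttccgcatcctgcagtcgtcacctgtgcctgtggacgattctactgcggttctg

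The promoters of Zfp763 (chr17:33033332-33033631 on the minus strand) and Zfp641 (chr15:98296112-98296411 on the minus strand), which rose most, and of Zfp39 (chr11:58904176-58904475 on the minus strand), which fell, hold no match to it and are printed without capitals:
Zfp763 promoter: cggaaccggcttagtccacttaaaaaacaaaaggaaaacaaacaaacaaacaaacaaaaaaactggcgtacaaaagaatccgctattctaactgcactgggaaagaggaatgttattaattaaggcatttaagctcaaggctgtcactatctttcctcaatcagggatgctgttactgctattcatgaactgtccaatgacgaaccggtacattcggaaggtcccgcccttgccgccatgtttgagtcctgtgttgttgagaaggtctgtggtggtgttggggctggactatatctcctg
Zfp641 promoter: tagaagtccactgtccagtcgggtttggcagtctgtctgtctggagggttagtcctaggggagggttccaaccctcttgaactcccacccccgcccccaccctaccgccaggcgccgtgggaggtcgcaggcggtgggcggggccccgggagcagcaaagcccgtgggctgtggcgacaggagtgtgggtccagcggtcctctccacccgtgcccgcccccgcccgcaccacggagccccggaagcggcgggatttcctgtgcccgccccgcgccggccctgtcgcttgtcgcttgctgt
Zfp39 promoter: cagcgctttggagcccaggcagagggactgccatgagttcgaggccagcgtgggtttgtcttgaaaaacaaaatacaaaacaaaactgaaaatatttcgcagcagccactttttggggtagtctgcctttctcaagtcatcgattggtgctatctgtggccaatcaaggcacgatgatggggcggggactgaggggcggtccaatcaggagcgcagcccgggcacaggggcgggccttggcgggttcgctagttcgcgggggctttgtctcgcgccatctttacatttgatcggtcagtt

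A match is a description of letters and not of a bound site. Since the string was picked from the promoters of the changed genes, its presence in 4 of these 10 was fixed by that choice and is no result. The share of Zfp promoters with the string includes these 4 and rests on the same choice, so it is a description too. Whether the string has a part in the changes was not tested. Of the 32 Zfp genes with the string, 16 lie on chromosome 7 and 8 on chromosome 13, where Zfp genes are clustered, and genes of a cluster can be copies of each other and are not independent. CpG dinucleotides numbered 3 in the promoter of Zfp791, 5 in Zfp58, 8 in Zfp759, 9 in Zfp763, 16 in Zfp109, 17 in Zfp169, 18 in Zfp39, 26 in Zfp641, 30 in Zfp687 and 33 in Zfp511. Their median of 16.5 was close to that of the Zfp promoters, 15, and the median over all promoters was 21. The GC box GGGCGG, on either strand, was present in 48.2% of Zfp promoters and 62.3% of all promoters, CCAAT in 47.7% and 39.5%, and TATAAA in 5.13% and 7.54%.

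The expressed Zfp genes were then placed on the genome. Of the 236, 59 lie on chromosome 7, 30 on chromosome 17, 19 on chromosome 8 and 15 on chromosome 13. The 9 increases were 3 on chromosome 13 (Zfp58, Zfp759 and Zfp169), 2 on chromosome 7 and 1 each on chromosomes 3, 8, 15 and 17. Around Zfp58, 9 other expressed Zfp genes lie within 1 Mb. Zfp759, whose start lies 369 kb away, was the one of these 9 that passed. At an unadjusted p below 0.05, 4 of the 9 were higher and 0 lower (44.4%). Of all genes 11.1% were higher and 19.8% differed in either direction. The 15 tested genes of any name in this window include these 9, and Zfp759 was the 1 of the 15 that passed. The median log2 change of the 9 was 0.46, and they ranged from -0.76 for Zfp87, the nearest, to 0.99 for Zfp759. Zfp87 had 1.28 RPKM in mutants and 2.30 RPKM in controls (adjusted p = 0.266), while Zfp729b had 5.17 RPKM in mutants and 2.93 RPKM in controls (log2 change 0.71, adjusted p = 0.0764).

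Around Zfp763 on chromosome 17, none of 9 expressed Zfp neighbours passed limma's threshold, and 1 had an unadjusted p below 0.05 (11.1%, against 19.8% of all genes). Their log2 changes ran from -0.93 for Zfp870 to 0.70 for Zfp563, against 3.07 for Zfp763 itself. Around Zfp109 on chromosome 7, none of 10 passed and 1 had an unadjusted p below 0.05 (10%), with 9 of the 10 above 0. The largest of these was Zfp180, at 1.85 RPKM in mutants and 0.417 RPKM in controls (log2 change 1.26, adjusted p = 0.0656). Its 4 mutant values all lay above its control values, as in 4.62% of all tested genes. Its control mean was below the 0.5 RPKM limit, so it passed the filter through the mutants, in which it was high and had to differ. Zfp108, next to Zfp109 and on the opposite strand, had a log2 change of 0.12 (adjusted p = 0.593). Zfp169, Zfp641, Zfp687, Zfp791 and Zfp511 have no other expressed Zfp gene within 1 Mb. The lowered gene Zfp39 has 2, Zfp672 (log2 change -1.25, adjusted p = 0.0940) and Zfp692 (0.94, adjusted p = 0.0842). Both had an unadjusted p below 0.05 in limma, in opposite directions. Near Zfp41 lie 2 as well, Zfp623 (-0.81) and Zfp707 (0.37), and 0 had an unadjusted p below 0.05. Of 235 Zfp genes with a transcript sequence, 34 shared over 10% of their 50-base stretches with genes anywhere in the genome, and 110 shared none. Zfp763, Zfp641, Zfp169, Zfp41 and Zfp687 were among the 110.

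**Figure D3:**
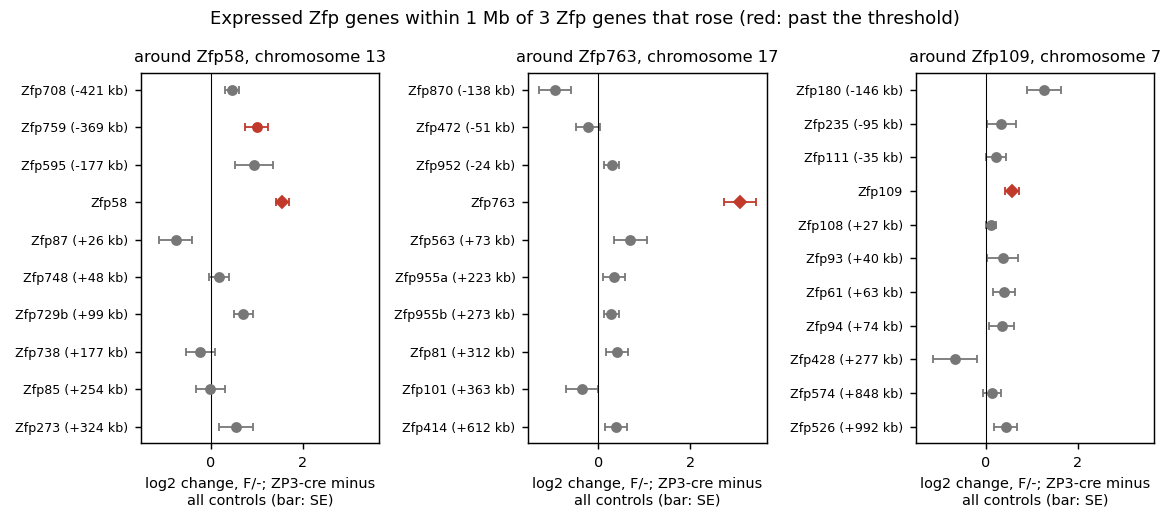
Log2 change of F/-; ZP3-cre against all controls (horizontal axis, bars are SE) for the expressed Zfp genes within 1 Mb of Zfp58, Zfp763 and Zfp109 (diamonds), ordered along the chromosome from top to bottom, with the distance of each start in kb. Red marks genes past the threshold: Zfp58 and Zfp759 in the left panel, and the central gene alone in the other 2.

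The mutants were also set against each control genotype, in a model with 3 groups. These comparisons share the mutant libraries, so their results are given side by side and not counted as repeats. Against F/+; ZP3-cre, where both groups carry Cre, 9 Zfp genes were higher (3.81%, background 2.76%) and 3 lower (1.27%, background 2.13%). Against F/-, where both carry the deleted allele, 9 were higher (3.81%, background 3.25%) and 4 lower (1.69%, background 1.59%). Without F/+; ZP3-cre replicate 1, 2 or 4 the first comparison left 1 lower gene (0.582% to 0.74% of all genes), and without F/+; ZP3-cre replicate 2 the second left 5 higher genes (1.74% of all genes). The log2 change of Zfp58 was 1.53 ± 0.15 (SE) against F/+; ZP3-cre and 1.60 ± 0.18 against F/-, that of Zfp763 was 2.89 ± 0.37 and 3.44 ± 0.45, and that of Zfp641 was 2.80 ± 0.38 and 2.80 ± 0.47. Zfp687 changed by 0.70 ± 0.13 and 0.80 ± 0.16. All 4 passed in both comparisons, with adjusted p of at most 0.0125, though Zfp641 passed the filter through the mutants, in which it was high and had to differ.

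Zfp41 changed by -1.95 ± 0.32 against F/+; ZP3-cre (adjusted p = 0.00353) and by -2.03 ± 0.39 against F/- (adjusted p = 0.0121), where the call was lost without F/- replicate 2 (adjusted p = 0.0662). For Zfp39 the values were -1.53 ± 0.33 (adjusted p = 0.0188) and -3.01 ± 0.40 (adjusted p = 0.00126), and the first was lost without F/+; ZP3-cre replicate 1, 2 or 4. The difference between its control groups was 1.48 on the log2 scale and did not pass (adjusted p = 0.143). Zfp169 passed against F/+; ZP3-cre (1.92 ± 0.25, adjusted p = 0.000652) and not against F/- (0.85 ± 0.30, adjusted p = 0.127), and here too the control groups did not differ past the threshold (1.08, adjusted p = 0.147). Zfp791 and Zfp759 likewise passed against F/+; ZP3-cre and not against F/-, at 0.79 (adjusted p = 0.00741) and 0.64 (adjusted p = 0.0556) for Zfp791 and 1.06 (adjusted p = 0.043) and 0.86 (adjusted p = 0.157) for Zfp759. Zfp109 and Zfp511 passed in neither, with adjusted p of 0.0659 to 0.0987.

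A few Zfp genes passed against 1 control genotype alone. Zfp69, known in mice as a modifier of diabetes in obesity, had 0.366, 0.0376, 0.248 and 1.49 RPKM in the mutants, against 2.46, 1.98, 2.68 and 2.25 RPKM in F/+; ZP3-cre and 1.60 and 0.769 RPKM in F/- controls. The F/- libraries overlapped the mutants, and the F/+; ZP3-cre libraries did not. The log2 change was -1.63 ± 0.40 against F/+; ZP3-cre (adjusted p = 0.0354) and -0.84 against F/- (adjusted p = 0.345). Leaving out mutant replicate 1, 2 or 3 or any F/+; ZP3-cre library ended that call. Zfp473 and Zfp277 were higher than in F/+; ZP3-cre, by 0.75 (adjusted p = 0.0151) and 0.60 (adjusted p = 0.0386), and they are named here after their values were seen.

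Zfp518a had 45.6, 43.7, 41.3 and 33.8 RPKM in the mutants, against 33.7, 34.9, 29.4 and 31.5 RPKM in F/+; ZP3-cre and 23.8 and 23.0 RPKM in F/- controls. It passed against F/- (0.79 ± 0.15, adjusted p = 0.0124) and not against F/+; ZP3-cre (0.33 ± 0.12, adjusted p = 0.159). Zfp60, Zfp760, Zfp961 and Zfp654, named after their values were seen, also passed against F/-, with log2 changes of 0.61, 1.37, 1.08 and 0.73. For Zfp60 and Zfp654 the mutants lay within or close to the F/+; ZP3-cre range, and it was the F/- libraries that were low. The F/- mean was also below the F/+; ZP3-cre mean for Zfp961, at 19.6 against 36.3 RPKM, with 41.1 RPKM in mutants. For Zfp760 these means were 1.17, 2.73 and 3.70 RPKM.

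Zfp772 and Zfp503 were lower in the mutants than in F/-. Zfp503 is also known as Nolz1, a repressor in brain patterning. The log2 changes were -2.86 ± 0.54 for Zfp772 and -1.96 ± 0.49 for Zfp503 (SE). Zfp772 had 0.335, 0, 0.119 and 0.0123 RPKM in the mutants, against 1.24, 0.396, 0.0830 and 0.335 RPKM in F/+; ZP3-cre and 1.93 and 7.41 RPKM in F/- controls. Zfp503 had 0.0271, 0, 0.0870 and 0.0688 RPKM in the mutants, against 0.0502, 0.139, 0.202 and 0.231 RPKM in F/+; ZP3-cre and 0.568 and 3.72 RPKM in F/- controls. In both genes F/- replicate 2 was far above every other library. Without that library their means are 0.495 and 0.153 RPKM, below the limit of 0.5 RPKM, so the library that let them pass the filter also carries their difference, and their calls are given as a description. Leaving out any mutant or F/+; ZP3-cre library ended the call of Zfp503, and neither gene passed against F/+; ZP3-cre (-0.63, adjusted p = 0.486, and -0.26, adjusted p = 0.787).

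Between the control genotypes, 0 of 236 Zfp genes passed in limma in either direction (background 0.0441% higher and 0.0265% lower), and 32 had an unadjusted p below 0.05 (13.6%, against 14% of all genes). The closest was Zfp524, named after its values were seen, at 12.7 and 24.0 RPKM in F/- against 4.87, 3.53, 4.42 and 4.35 RPKM in F/+; ZP3-cre (log2 difference 1.92, adjusted p = 0.0939), and 56.8% of its 50-base stretches also occur in other genes, with Gm44973 sharing the most. Without F/- replicate 1 the comparison gave 11 higher and 10 lower (4.74% and 4.31% of the 232 that passed the filter then, against 2.63% and 4.8% of all genes), with replicate 2 alone standing for the genotype and assumed to vary like the other groups. Without mutant replicate 4 it gave 1 higher (0.194% of all genes). Without F/- replicate 1, the mutants against F/- gave 23 higher and 8 lower (all genes 8.79% and 4.31%), and without F/- replicate 2 they gave 7 lower (all genes 1.61%). With the F/- libraries left out, singly or together, the mutants against F/+; ZP3-cre gave 14 higher and 8 lower (all genes 4.52% to 4.59% and 3.39% to 3.45%), so calls became more frequent over the whole table and not among Zfp genes alone.

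**Figure D4:**
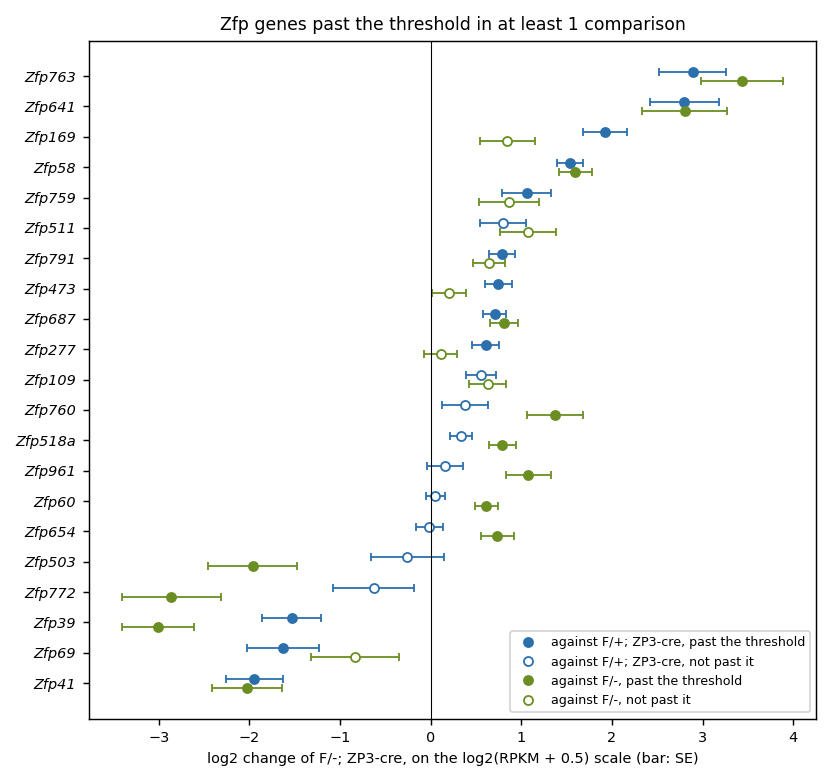
Log2 change of F/-; ZP3-cre against F/+; ZP3-cre (blue) and against F/- (green), with SE bars, for the Zfp genes past the threshold in at least 1 comparison (filled where that comparison passed). Zfp763, Zfp641, Zfp58, Zfp687, Zfp39 and Zfp41 are filled in both colours, and Zfp503 and Zfp772 in green alone.

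The Zfp genes with the highest control levels did not pass the test in any comparison. Zfp296, a factor of pluripotent cells, led with 117, 131, 106 and 98.4 RPKM in the mutants, against 95.8, 104, 79.3 and 94.6 RPKM in F/+; ZP3-cre and 98.1 and 74.8 RPKM in F/- controls (log2 change 0.31 ± 0.12 SE, adjusted p = 0.154). The groups overlapped. Zfp108 averaged 90.9 ± 7.80 RPKM in mutants and 83.8 ± 11.9 RPKM in controls, and Zfp750, a regulator of epidermal differentiation, averaged 87.0 ± 7.08 RPKM in mutants and 79.6 ± 14.3 RPKM in controls. Zfp592, whose human counterpart is part of the complex of ZNF687, stood at 80.0 ± 7.25 RPKM in mutants and 76.2 ± 6.13 RPKM in controls (log2 change 0.07, adjusted p = 0.745). Zfp655, Zfp280b, Zfp664 and Zfp957 had log2 changes of -0.20, 0.15, -0.25 and -0.04. Against all controls 1 of these 8 genes, Zfp296, had an unadjusted p below 0.05 in limma.

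**Figure D5:**
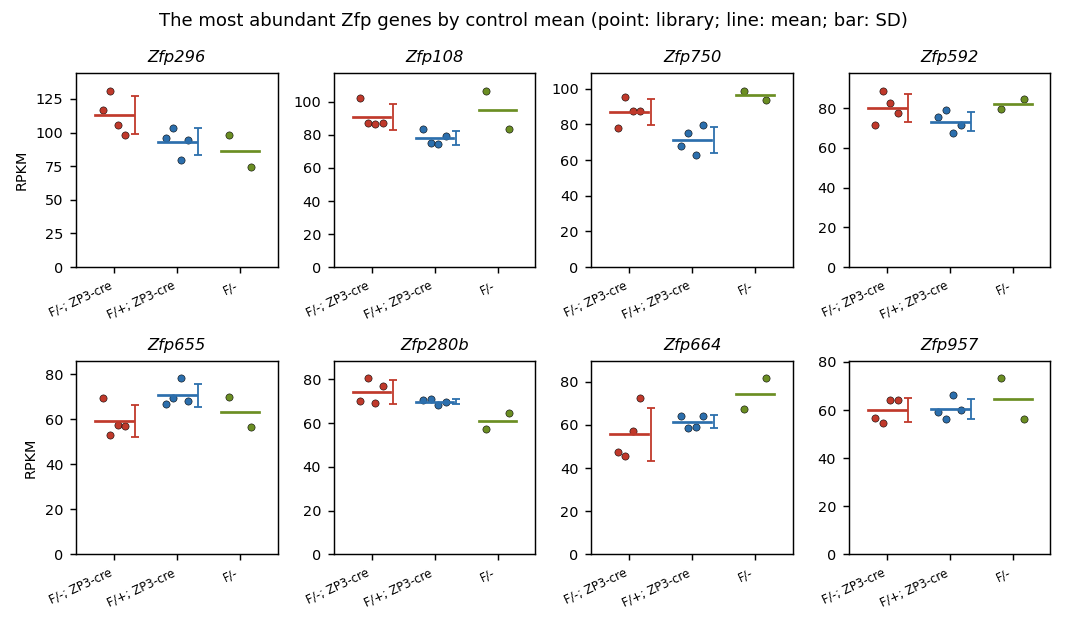
RPKM of the 8 Zfp genes with the highest control mean in each library (points), with F/-; ZP3-cre left, F/+; ZP3-cre in the middle and F/- right, the mean as a line and the SD as a bar for groups of 4. The mutant libraries overlap the control libraries in each gene, and none of the 8 passed the threshold.

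Zfp genes with a known role were followed as a list of 20, of which 16 were expressed above the filter. In limma 0 of the 16 passed in any of the 4 comparisons, and against all controls 1, Zfp598, had an unadjusted p below 0.05 (6.25%, against 19.8% of all genes). The list's median log2 change was -0.07, against 0.03 over all tested genes. Zfp207, which loads Bub3 at kinetochores and supports spindle assembly, stood at 56.9 ± 3.66 RPKM in mutants and 56.9 ± 8.11 RPKM in controls. Zfp598, the ubiquitin ligase that marks collided ribosomes, stood at 25.7 ± 3.56 and 20.3 ± 4.15 RPKM in mutants and controls (log2 change 0.34, adjusted p = 0.250). Zfp143 averaged 7.23 ± 2.58 RPKM in mutants and 9.25 ± 0.768 RPKM in controls (log2 change -0.39, adjusted p = 0.322).

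Among the KRAB genes of that list, Zfp809, which silences retroviral elements through their proline tRNA primer binding site, had 2.28 ± 0.388 RPKM in mutants and 3.51 ± 1.11 RPKM in controls (adjusted p = 0.354). Zfp568, which represses a placental transcript of Igf2, had 10.4 ± 3.07 RPKM in mutants and 9.14 ± 2.14 RPKM in controls (adjusted p = 0.760). Zfp281, a factor of pluripotent cells, had 1.54 ± 0.868 RPKM in mutants and 2.00 ± 0.645 RPKM in controls. Zfp451, a SUMO ligase, had 20.9 ± 3.55 and 17.9 ± 3.498 RPKM, and Zfp91, a ubiquitin ligase, 20.7 ± 0.603 and 17.9 ± 2.90 RPKM, in mutants and controls. Zfp326, a splicing factor of the DBIRD complex, had 0.343 ± 0.352 RPKM in mutants and 1.06 ± 1.28 RPKM in controls (log2 change -0.70, adjusted p = 0.426), the widest change of the 16. The F/- libraries were at 3.65 and 0.913 RPKM, and the F/+; ZP3-cre mean was 0.445 RPKM. Zfp326 thus passed the 0.5 RPKM filter through the F/- libraries, which also carry its difference. Against F/+; ZP3-cre its log2 change was -0.25 (adjusted p = 0.798). Zfp217 and Zfp131 had log2 changes of -0.38 and -0.42, and Zfp106, Zfp830, Zfp335, Zfp148 and Zfp593 lay between -0.11 and -0.01.

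The partners through which KRAB zinc finger proteins act were read beside them. Of 33 listed co-repressor genes 30 were tested, and 0 were higher and 1 lower in the mutants against all controls, with 7 at an unadjusted p below 0.05. These shares, 3.33% and 23.3%, lay near the 5.33% and 19.8% of all tested genes. Trim28 stood at 30.4 ± 2.99 RPKM in mutants and 33.9 ± 10.05 RPKM in controls (log2 change -0.11, adjusted p = 0.801). The 1 that fell was Dnmt1, the maintenance DNA methyltransferase, at 351 ± 22.8 RPKM in mutants and 514 ± 32.7 RPKM in controls (log2 change -0.55 ± 0.08 SE, adjusted p = 0.000808). Morc2a, a partner of the HUSH silencing complex, passed against F/+; ZP3-cre (0.68, adjusted p = 0.0376), and the chromatin remodeller Atrx passed against F/- (0.64, adjusted p = 0.0429). The imprint keepers Zfp57 and Zfp445 averaged 796 ± 22.1 and 5.46 ± 1.03 RPKM in mutants, against 765 ± 59.9 and 5.94 ± 0.852 RPKM in controls, and neither passed.

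Other zinc finger families were read against the same background of 5.33% past the threshold and 19.8% at an unadjusted p below 0.05. Of 36 tested Zbtb genes, 0 rose and 1 fell, Zbtb44, at 5.26 ± 0.203 RPKM in mutants and 14.6 ± 4.58 RPKM in controls (log2 change -1.32, adjusted p = 0.00607), and 5 had an unadjusted p below 0.05 (2.78% and 13.9%). Of 17 Zscan and Zkscan genes, 7 Klf genes, 13 Zc3h genes and 2 Zfp36 paralogs, 0 passed in limma against all controls, and 1, 1, 1 and 0 had an unadjusted p below 0.05, in lists too short to set a share against the background. Whether any of these families differs from the Zfp genes was not tested.

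The Zfp genes differed between replicates of the mutant about as tested genes in general did. The median SD on the log2 scale was 0.42 in mutants and 0.17 in F/+; ZP3-cre for the Zfp genes, against 0.39 and 0.19 for all tested genes. Zfp1, named after its values were seen, had the largest spread, with 0.881, 0.133, 3.19 and 6.08 RPKM in the mutants, against 0.783, 0.257, 1.31 and 0.620 RPKM in F/+; ZP3-cre and 0.989 and 0.441 RPKM in F/- controls (log2 change 0.86, adjusted p = 0.414). Several transcript rows existed for 66 of the 236 genes. In 62 of the 65 with more than 1 row over the filter, all rows changed in the same direction, and in 0 of the 65 did the rows differ by more than 1 on the log2 scale. In a fit without a filter, 1 of the 122 Zfp symbols below 0.5 RPKM passed, as higher in the mutants against all controls. Of all 24453 genes in that fit 0.904% were higher, so this count lay near the background.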

How the data were processed

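RNA-seq of 10 oocyte pools was analysed from 1 table of RPKM values that the authors deposited, with 34768 RefSeq transcript rows and 24453 symbols. Per the labels' protocols, cDNA was amplified with the NuGen Ovation system before a TruSeq DNA library was made. That kit keeps no strand information, and amplification of small inputs adds spread between libraries. STAR, bcl2fastq 1.8.3 and the build mm10 are named in the submitters' processing notes. How reads were counted, and what was done with those that align to several places, is not stated, and dropping them would lower Zfp genes with near-identical copies.

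RPKM are not counts, so limma 3.58.1 in R 4.3.3 was run on log2(RPKM + 0.5), which understates changes of low genes, with an empirical Bayes trend over the 11338 genes of mean at least 0.5 RPKM. P-values were adjusted by Benjamini-Hochberg over all of these, with a threshold of 0.05. The model of mutants against all controls had 2 levels, and the comparisons with each control genotype came from a model of 3 groups that share 1 estimate of the spread. All adjusted p-values are from limma. Setdb1 was tested with an exact permutation test. Each library is 1 mouse. The replicate numbers were checked for pairing, and the deviations of libraries with the same number correlated at -0.046 to 0.031, so they were not taken as pairs.

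Read totals came from the spacing of low values, of which 69.3% to 72.9% fell within 0.1 of a whole read, so depths are approximate. Gene positions and promoters are from RefSeq (GRCm38), and gene strands, exon overlaps and transcript sequences from GENCODE M21. The limma step was tested on simulated data. Protein features of the Zfp genes were not analysed here. The members, lists and naming rule were chosen with earlier results of these data known. Named genes are those past the threshold, the 8 of highest control mean, up to 4 per direction in each other comparison, those at the filter's edge and the listed genes. The symbols starting with Zfp36 that were left out are 4 paralogs of Zfp36 and 5 others, whose means were all below 0.5 RPKM.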

Additional observations from a re-analysis of the deposited data

Results flagged for a closer look

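In groups of 4 to 10 libraries the highest or lowest value was compared with its nearest neighbour relative to the group's range (Dixon's criterion), for 120 groups of named genes. Chance alone marks about 1 in 20 groups when all values of a group come from 1 normal distribution. The controls pool 2 genotypes. Libraries correlated at r = 0.878 in F/- and 0.972 to 0.987 in F/+; ZP3-cre, so this rate need not hold for the pooled controls. The criterion marked 11 groups, and of the 8 that concern a Zfp gene among the controls all had an F/- library as the highest value. F/- replicate 2 stood out in Zfp169 (12.1 RPKM, other controls 3.28 to 6.33), in Zfp217, which encodes a factor amplified in human breast cancer (14.7 RPKM, others 5.57 to 8.87), in Zfp503 (3.72 RPKM, others 0.0502 to 0.568), in Zfp598 (28.5 RPKM, others 17.4 to 19.9) and in Zfp772 (7.41 RPKM, others 0.0830 to 1.93). F/- replicate 1 stood out in Zfp108 (107 RPKM, others 74.4 to 83.7), in Zfp326 (3.65 RPKM, others 0.378 to 0.913) and in Zfp593 (2.51 RPKM, others 0.362 to 0.904). Among the mutants, replicate 1 stood out in Zfp108 (103 RPKM, others 86.4 to 87.5). Setdb1 itself was high in F/+; ZP3-cre replicate 4, at 52.5 RPKM, both among the 4 libraries of its genotype (others 25.1 to 28.6) and among all 6 controls (others 19.9 to 28.6). The causes were not tested.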

How the results depend on the processing

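The alternatives followed the 11 calls against all controls and up to 4 calls per direction in each other comparison. None of these changed direction under any alternative, and the other calls were not followed. The sign of 7 named genes that did not pass (Zfp106, Zfp148, Zfp207, Zfp281, Zfp592, Zfp593 and Zfp957) changed in at least 1 alternative. Zfp207, at 0.01, was at -0.05 with median centring and -0.06 with quantile normalization. Against all controls, Zfp58, Zfp763, Zfp641, Zfp687, Zfp791 and Zfp41 passed in every setting that tested them, Zfp169 and Zfp39 were lost without a filter on low values (adjusted p = 0.0791 and 0.0812), and Zfp759, Zfp109 and Zfp511 were lost in 7, 12 and 13 of 26 settings. Zfp641, Zfp41 and Zfp39 passed the 0.5 RPKM filter through the group in which they were high and had to differ, so their stability is a description. Counts of calls moved over the whole table as well, so the share of all genes called is given beside the larger shifts. The cause was not tested. Lower genes against all controls, 2 in the main analysis, numbered 5 with median centring (2.99% of all genes, against 2.22%), 5 with quantile normalization (2.97%), 1 without a filter (0.556%), 0 at a mean of at least 2 RPKM, which removes both (2.3%), 13 with array weights (5.12%), 7 at a threshold of 0.10 (3.69%), 4 with equal weight of the control genotypes (2.8%) and 8 without both F/- libraries (3.39%), an alternative chosen after seeing the data. Higher genes, 9 in the main analysis (3.1% of all genes), numbered 18 with array weights (7.12%), 17 at 0.10 (4.95%) and 14 without both F/- libraries (4.59%). Against F/+; ZP3-cre, the 9 higher (2.76% of all genes) became 21 with array weights (7.12%) and 14 without both F/- libraries (4.59%), and the 3 lower (2.13%) became 5 with quantile normalization (3.04%), 0 at 2 RPKM (2.18%), 13 with array weights (5.19%), 6 at 0.10 (3.63%) and 8 without both F/- libraries (3.39%). Against F/-, the 9 higher (3.25%) became 2 with array weights (0.406%) and 19 at 0.10 (6.02%), and the 4 lower (1.59%) became 2 without a filter (0.356%), 0 at 2 RPKM (1.54%), 0 with array weights (0.0529%) and 9 at 0.10 (3.42%). F/- against F/+; ZP3-cre gave 1 lower without a filter (0.0777%) and 1 higher at 0.10 (0.238%), against 0 in both directions.

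With the replicate number as a block, against F/- 4 were higher and 1 lower (1.44% and 0.529% of all genes). Against all controls the numbers were 7 and 2 (2.08% and 1.23%), and against F/+; ZP3-cre 8 and 2 (2.15% and 1.23%). The block changes the degrees of freedom, and the replicate numbers pair no samples. Leaving out 1 library at a time gave, against all controls, 6 to 14 higher and 2 to 9 lower, against F/+; ZP3-cre 6 to 14 and 1 to 8, against F/- 5 to 23 and 3 to 8, and between the controls 0 to 11 and 0 to 10. The share of all genes called moved as well, from 2.08% to 3.92% higher and from 1.05% to 3.13% lower against all controls. In the other comparisons the highest counts were reached without F/- replicate 1, where calls were more frequent over the whole table too. These swings are therefore not a property of the Zfp genes alone. With 1 F/- library left, it was assumed to vary like the other groups, so counts from such fits are a description. The median log2 change of the Zfp genes stayed between 0.05 and 0.13, and that of Setdb1 between -3.38 and -2.94. Values below about 0.1 RPKM rest on few reads, and depths are known only approximately.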
